A study of Mus musculus with 6 samples.

Results

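mmu-miR-122, the microRNA (miRNA) that marks hepatocytes, was followed through liver tumours of STAM mice, the non-tumour liver of STAM mice and normal liver. It was taken as the probe named mmu-miR-122 by the scanner, the main strand without a star, and is 1 of 1096 mouse miRNA names on the array. STAM mice are C57BL6 mice that receive streptozotocin and a high-fat diet, pass through non-alcoholic steatohepatitis (NASH) and bear hepatocellular carcinoma (HCC) at 18 weeks of age, per the labels. Total RNA was hybridised to 1-colour arrays for 3 HCC samples (HCC 1, HCC 2-1 and HCC 2-2), 2 samples of non-tumour liver (NT 1 and NT 2) and 1 normal liver, labelled as a control on the C57BL6 background. The labels do not give the age of the normal liver or say how samples pair within a mouse. They also do not say that HCC 2-1 and HCC 2-2 came from separate mice, so p-values reflect how these arrays vary and not how mice vary. The tissue was bulk, so fewer hepatocytes and less miR-122 per hepatocyte cannot be told apart.

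miRNAs guide Argonaute proteins to messenger RNAs through the seed, bases 2 to 8 of the mature strand, and lower the output of those messengers. miR-122 is made in hepatocytes under liver-enriched transcription factors such as HNF4A, and is known for restraining messengers such as those of Slc7a1, Aldoa and Ccng1. Mice that lack it are known to develop steatohepatitis, fibrosis and liver tumours, and low miR-122 has been described in a part of human liver cancers. miR-122* is the passenger strand cut from the same hairpin.

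The miRNAs whose spots lay closest to miR-122 in brightness, and miR-192 and miR-194, liver-enriched miRNAs set beside it below, are shown here as mature sequences from RefSeq (GRCm38.p6), 5′ to 3′, with the seed in capitals. They are shown because the rank and share of miR-122 are measured against them. Of 8 names looked up, 6 had an entry, and miR-720 and miR-122* are given by name only.
miR-3968: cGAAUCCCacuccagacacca
miR-5100: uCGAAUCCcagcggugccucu
miR-690: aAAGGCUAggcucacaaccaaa
miR-5126: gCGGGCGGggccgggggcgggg
miR-192: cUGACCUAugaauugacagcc
miR-194: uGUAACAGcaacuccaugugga
None of the 6 share a 7-base seed. miR-3968 and miR-5100, the 2 probes most often brighter than miR-122, share the run CGAAUCCCA, from base 1 of miR-3968 and base 2 of miR-5100. That run occurs in 2 of 1674 mature sequences in the RefSeq table (0.119%), these 2 alone. miR-5126 consists of G and C alone (100% GC), against 47.6% for miR-192 and 45.5% for miR-194.

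miR-122 was among the 5 brightest mouse probes on every array, and in HCC its signal ran from the lowest to the highest of the 6 samples. Its spot read 2725 on HCC 1, 4639 on HCC 2-1 and 7358 on HCC 2-2, against 6163 on NT 1, 5647 on NT 2 and 5379 on normal liver (pixel medians in scanner units). Blank spots averaged between 12.5 and 17.6 units, and miR-122 lay 132- to 437-fold above the minimum for a spot to count as above background, the mean plus 2 SD of the blanks. The brightest spot of any kind reached at least 43409 units on each array, so the miR-122 spot was at 6.01% to 15.8% of the highest reading and not near a ceiling.

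After subtraction of the blank level, miR-122 gave 2707 units on HCC 1, 4624 on HCC 2-1 and 7344 on HCC 2-2. NT 1 gave 6150.5 and NT 2 gave 5634, and normal liver gave 5366. The highest HCC sample exceeded the lowest 2.71-fold, while the 2 NT samples differed 1.09-fold. The mean was 4892 ± 2330 units in HCC (SD, n = 3) and 5892 ± 365 units in NT (SD, n = 2), and the groups overlapped, since HCC 2-2 lay above both NT samples. Each array carries 1 spot of the probe, whose pixels varied by 14.4% to 32.7% (SD over mean), so there was no repeat spot to measure technical error.

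The total signal of all mouse probes also differed, at 79899, 77556 and 93469 units in the HCC samples, 63506 and 73382 in the NT samples and 57266 in normal liver. As a share of that total, miR-122 held 3.39% on HCC 1, 5.96% on HCC 2-1 and 7.86% on HCC 2-2. It held 9.68% on NT 1, 7.68% on NT 2 and 9.37% in normal liver. HCC 1 and HCC 2-1 were below both NT samples and normal liver, and HCC 2-2 lay just above NT 2. The mean share was 5.74% ± 2.24 in HCC (SD, n = 3) and 8.68% ± 1.42 in NT (SD, n = 2), a difference of -2.95 percentage points. The exact 2-sided permutation test over these 5 arrays gave p = 0.4, where 3 against 2 arrays cannot give less than 0.2. Against normal liver, with 1 array and no test, the mean share differed by -3.63 percentage points in HCC and by -0.69 in NT.

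Spots named as spike controls gave a scale that does not depend on other mouse miRNAs. Each of the 2 controls has 8 spots per array, which varied by 2.11% to 9.12% (SD over mean). Per unit of control signal, miR-122 was at 4.47 on HCC 1, 6.91 on HCC 2-1 and 11.1 on HCC 2-2, against 12.0 on NT 1, 10.1 on NT 2 and 9.56 in normal liver. HCC 2-2 was within the range of the NT samples on this scale, and HCC 1 was at less than any other sample. The means were 7.49 ± 3.34 in HCC (SD, n = 3) and 11.0 ± 1.29 in NT (SD, n = 2), with p = 0.4 by the exact permutation test. The scanner gain was 41 for HCC 1, 39 for the other HCC arrays and 38 for the NT and normal arrays, and its part in these values was not tested.

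**Figure D1:**
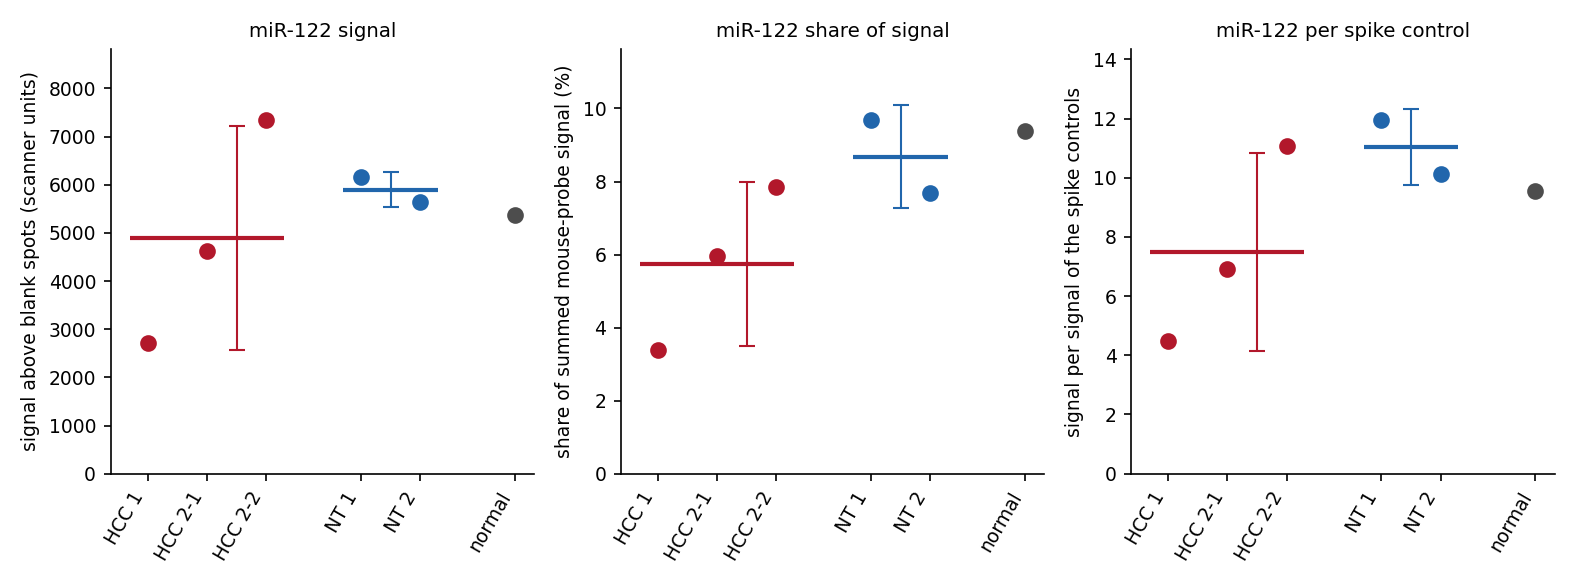
miR-122 on each array as signal above the blank spots in scanner units (left), as a percentage of the summed signal of all mouse probes (middle) and per unit of spike-control signal (right). Points are arrays, horizontal lines are group means, vertical bars are SD (HCC n = 3, NT n = 2), and normal liver has 1 array. The HCC points run from 2707 to 7344 units and the NT points from 5634 to 6150.5.

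miR-122 was never the brightest mouse probe. It ranked 5 on HCC 1, 3 on HCC 2-1 and 2 on HCC 2-2, against 2 on NT 1, 3 on NT 2 and 3 in normal liver. These ranks compare spot brightness, which also depends on how well each probe binds, and so they are no ranking of molecules. miR-3968 ranked 1 on all 6 arrays, with 16365, 13408 and 13976 units in HCC, 13270 and 12371 in NT and 13213 in normal liver. miR-122 reached 0.165, 0.345 and 0.525 of that signal in HCC, 0.464 and 0.455 in NT and 0.406 in normal liver. miR-5100 was brighter than miR-122 on HCC 1, HCC 2-1, NT 2 and normal liver, and dimmer on HCC 2-2 and NT 1. On NT 2 the 2 spots were nearly equal, with miR-122 at 0.982 of miR-5100.

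On HCC 1, miR-690 and miR-720 were also brighter than miR-122, and miR-5126 was next below it. miR-720 gave 4286 units there, against 3217 and 3166 units on the other HCC arrays, 3045 and 3144 in NT and 3355 in normal liver. miR-720 has been described as a fragment of a transfer RNA. The low rank of miR-122 on HCC 1 thus came with a lower miR-122 signal and with the highest miR-3968, miR-5100 and miR-720 signals among the 6 arrays. The 5 brightest probes held 42.5%, 40.1% and 38.2% of all mouse-probe signal in HCC, 49.1% and 42.4% in NT and 54.3% in normal liver.

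With the other 5 of the 6 brightest probes left out of the total, the miR-122 share was 5.89% on HCC 1, 9.48% on HCC 2-1 and 11.9% on HCC 2-2. It was 16.4% on NT 1, 12.3% on NT 2 and 17.6% in normal liver. On this total every HCC sample was below every NT sample, and the difference of the means was -5.27 percentage points with p = 0.2, the smallest that the exact permutation test can give here. This total was chosen after the values were seen, and how many other miRNAs separate the groups on it was not counted. With all mouse probes in the total the groups overlapped.

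**Figure D2:**
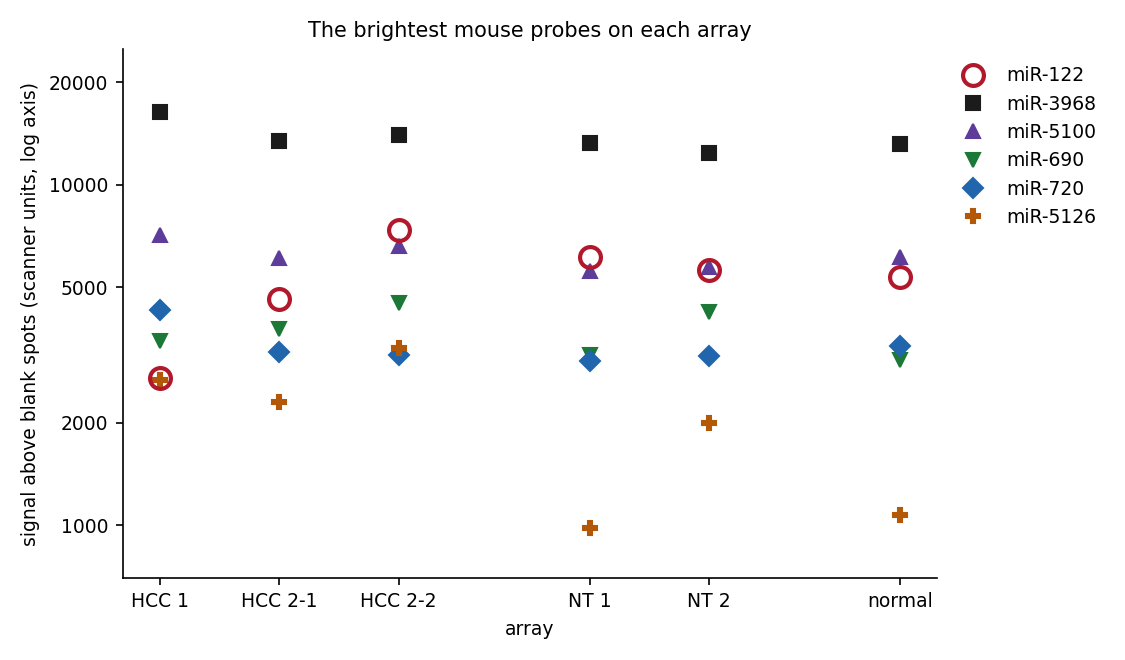
Signal above the blank spots, in scanner units on a log axis, of the 6 probes that were among the 5 brightest on at least 1 array. Each symbol is 1 probe on 1 array, and miR-122 is the open circle. miR-3968 lies between 12371 and 16365 units on every array, while miR-122 ranges between 2707 and 7344.

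For the comparison of groups, log2 intensities of all mouse probes were quantile normalized and fitted together by limma. miR-122 was at 11.61, 12.38 and 12.65 on HCC 1, HCC 2-1 and HCC 2-2, at 12.65 and 12.38 on NT 1 and NT 2, and at 12.38 in normal liver (normalized log2 intensity). In this normalization a value is set by the rank of the probe on its array, so these 6 values take only 3 levels. Their spread follows the steps between ranks. The SD was 0.54 in HCC and 0.19 in NT, against 0.71 and 0.088 without normalization between arrays. The difference HCC minus NT was -0.30 (SE 0.34, 95% confidence interval -1.19 to 0.58), with limma's adjusted p at 0.837. As a fold, HCC was at 0.81 of NT with an interval of 0.438 to 1.50. The interval includes both a fall to less than 0.5 of NT and a rise, so the arrays do not show that the groups are alike. In this comparison 0 of 613 tested miRNAs (0%) passed an adjusted p of 0.05, and 56 had an unadjusted p under 0.05. The smallest adjusted p of any miRNA was 0.0645.

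NT minus normal was 0.14 for miR-122 (SE 0.45, interval -1.06 to 1.33, limma's adjusted p 0.933), where 1 of 613 miRNAs passed (0.163%). HCC minus normal was -0.17 (SE 0.43, interval -1.29 to 0.95, limma's adjusted p 0.872), where again 1 of 613 passed (0.163%). HCC minus normal was -0.81 in the authors' deposited table, -1.22 with cyclic loess and -1.49 with the blank level subtracted and median scaling over probes above background on all arrays. Limma's adjusted p was 0.409, 0.552 and 0.364 for these. The comparisons share arrays, and the single normal liver takes its spread from the other groups.

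The size of the HCC minus NT difference depended on how the arrays were brought to 1 scale. It was -0.38 with no normalization between arrays, -0.57 with cyclic loess, -0.63 on the spike-control scale and -0.86 in the authors' deposited table. None of these passed, with limma's adjusted p at 0.643, 0.854, 0.194 and 0.539. On the spike-control scale the median of the 613 miRNAs was itself -0.18 in HCC minus NT, and miR-122 was -0.45 relative to that median.

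miR-122 was called lower in HCC under 2 scalings, both over the 282 probes above background on all 6 arrays and both chosen after the data were seen. Subtraction of the median of those probes gave -0.59 (limma's adjusted p 0.0213), with 20 of 613 miRNAs called (3.26%). Subtraction of their 75th percentile gave -0.71 (limma's adjusted p 0.00433), with 15 of 613 called (2.45%). The median of all 613 moved to -0.14 and -0.27 there, and relative to it miR-122 was at -0.45 in both. That figure equals the one on the spike-control scale and the one without normalization between arrays. These scalings take the same value from every probe of an array, so the figure cannot differ among them and is no separate result. HCC minus normal was also called with that 75th percentile, at -0.96 (limma's adjusted p 6.88e-04). However, 498 of 613 miRNAs were called with it (81.2%), and the median of all 613 was -0.61.

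These calls went with the spread that limma assigned to the probe. The residual SD of miR-122 itself was 0.55 and 0.60 under the 2 scalings that gave a call, and limma's pooled prior replaced it by 0.18 and 0.19. In the quantile-normalized fit the residual SD was 0.46 and limma used 0.37, with a prior worth 1.63 degrees of freedom against 64.9 with the median. The same 2 scalings taken over the 613 tested probes gave -0.44 and -0.54, with limma's adjusted p at 0.826 and 0.403. Taken over all mouse probes they gave -0.42 and -0.46, with limma's adjusted p at 0.825 and 0.736.

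**Figure D3:**
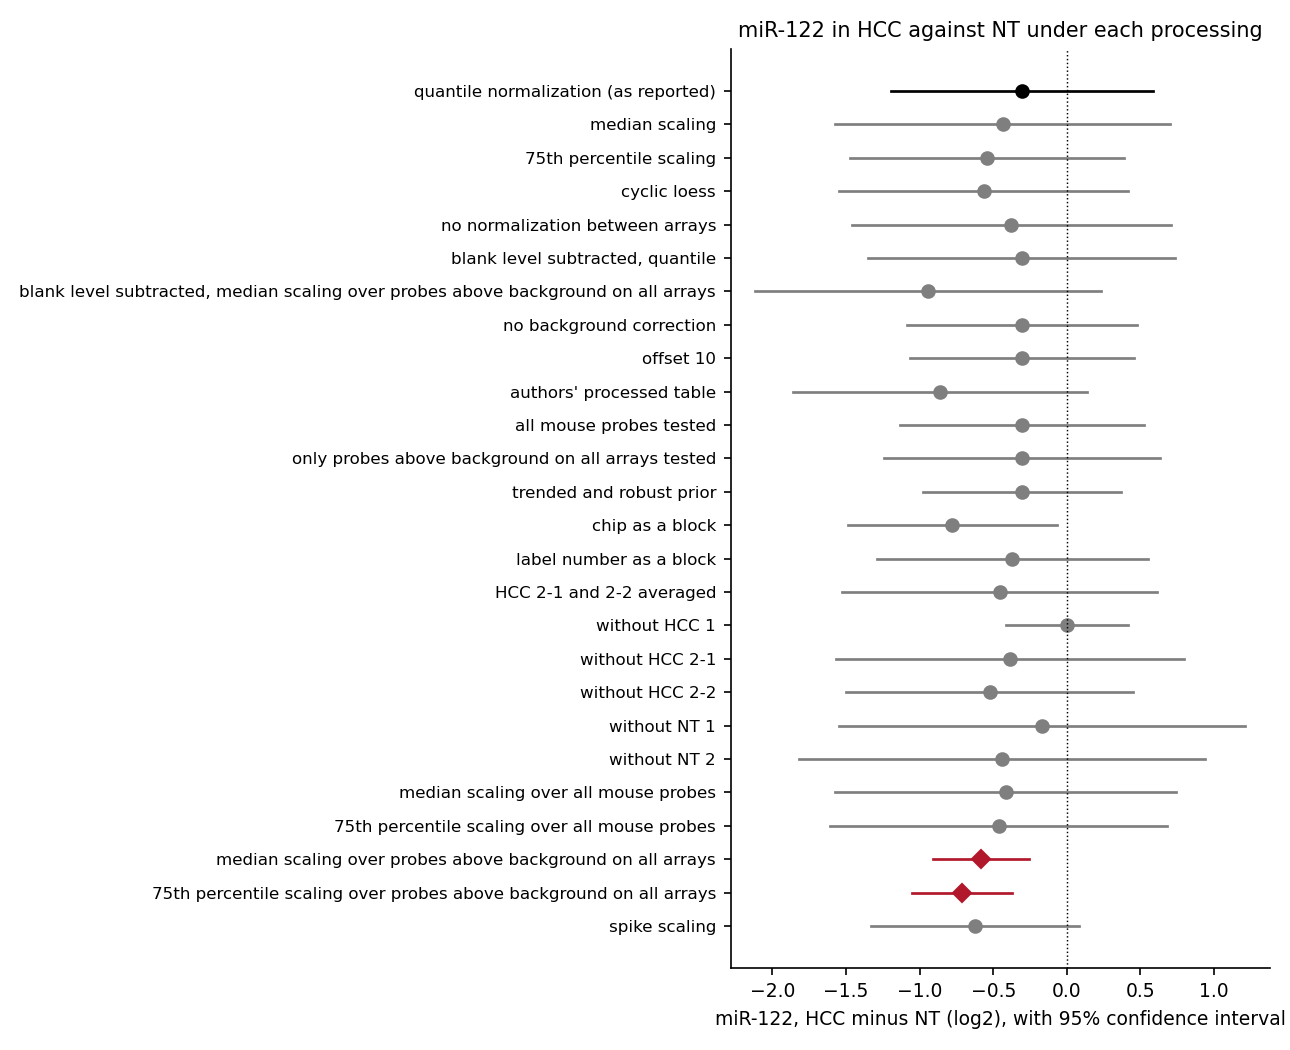
The HCC minus NT difference of miR-122 (log2, horizontal axis) under each way of processing, 1 per row, with limma's unadjusted 95% confidence interval. Red diamonds mark the 2 settings in which the adjusted p was under 0.05, at -0.59 and -0.71. The black point is the quantile-normalized fit, at -0.30. Every other point but that without HCC 1 lies below 0, and the fit with chip as a block has an interval below 0 but an adjusted p of 0.541.

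The difference on the quantile-normalized scale rested on HCC 1. Without it, HCC minus NT was 0.00 (limma's adjusted p 1.00), and the difference in share was -1.77 percentage points. The remaining HCC arrays and the NT arrays hold the same ranks, 2 and 3, so the exact 0.00 is set by the normalization. The log2 fit without HCC 1 was run on this scale alone. Leaving out any other HCC or NT array kept the log2 difference between -0.52 and -0.17. HCC 1 and NT 2 shared a chip, and within that chip HCC 1 minus NT 2 was -0.78. HCC 2-1 and HCC 2-2 shared another chip, and within it HCC 2-1 minus HCC 2-2 was -0.27 after quantile normalization and -0.66 without normalization between arrays. NT 1 and normal liver shared the remaining chip, where NT 1 minus normal was 0.27. Both differences of 0.27 are the same step between ranks 2 and 3, which the normalization sets, so their equal size is no result. Without normalization between arrays NT 1 minus normal was 0.20. With chip as a block the HCC minus NT difference rests on HCC 1 and NT 2 alone, at -0.78 (limma's adjusted p 0.541).

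The passenger strand had the same order among the tumours as its guide. miR-122* gave 181 units above blank on HCC 1, 209.9 on HCC 2-1 and 433 on HCC 2-2, against 313 on NT 1, 297 on NT 2 and 267 in normal liver. HCC 1 was again lowest and HCC 2-2 highest. Its rank was 60, 55 and 44 in HCC, 36 and 42 in NT and 39 in normal liver. On the quantile-normalized scale HCC minus NT was -0.65 for miR-122* (limma's adjusted p 0.542). Its signal was 6.70%, 4.54% and 5.89% of the miR-122 signal in HCC, 5.08% and 5.27% in NT and 4.97% in normal liver. This percentage averaged 5.71 ± 1.09 in HCC (SD, n = 3) and 5.17 ± 0.13 in NT (SD, n = 2), with p = 0.6 by the exact permutation test. The percentage compares 2 probes and is not a ratio of molecules.

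Other miRNAs known to be enriched in liver did not pass the test in any comparison. The list holds miR-122 and 15 others, among them miR-192 and miR-194, which are made from shared clusters, miR-148a, miR-22, miR-30a, miR-30c and miR-378. In HCC minus NT, 14 of the 15 others had a difference below 0, with miR-22 at -0.00028, and miR-378 alone was above 0, at 0.38. Their median was -0.14 against 0.00 over all 613 tested miRNAs, and 0 of 15 passed. This lean was not particular to the liver-enriched list. Among markers of other cells, 8 of 8 leukocyte, 5 of 5 mesenchymal and stellate and 2 of 2 endothelial miRNAs were below 0. So were 3 of 3 erythroid and 5 of 7 bile duct and epithelial miRNAs, while the 1 muscle and 2 nerve miRNAs tested were above 0. The medians were -0.36 for mesenchymal and stellate and -0.12 for leukocyte miRNAs. Some of the 15 were close to background, where the sign of a difference says little. The miR-483 spot read 15 to 22 units, and miR-802 was not above background on HCC 1 and HCC 2-1. In NT minus normal, 14 of the 15 were below 0 with a median of -0.37, and in HCC minus normal 14 were below 0 with a median of -0.43, with 0 of 15 passing in either. miR-122 at 0.14 was thus above 0 in NT minus normal, where most of the list was below 0. In 5 of 24 alternative settings, however, miR-122 was below 0 there. Several of the other settings change only the tested probes, limma's prior or HCC arrays, which cannot move this value. Those that change only the background correction before quantile normalization kept the rank of miR-122, and so gave 0.14 again.

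The 3 brightest of the others were miR-192, miR-22 and miR-194. miR-192 gave 967, 1124 and 1347 units in HCC, 949.5 and 954 in NT and 1041 in normal liver. miR-22 gave 830.4, 819.9 and 849 units in HCC, 719.5 and 623 in NT and 583 in normal liver. miR-194 gave 657, 819 and 1026 units in HCC, 779 and 709.9 in NT and 736 in normal liver. Like miR-122, miR-192 and miR-194 were lowest in HCC 1 and highest in HCC 2-2 among the tumours, whereas miR-22 hardly varied among them. Per unit of spike-control signal, miR-192 was at 1.60 to 2.03 in HCC, against 1.71 to 1.85 in NT, and miR-22 at 1.23 to 1.37 in HCC, against 1.12 to 1.40 in NT. On that scale the HCC and NT ranges of both overlapped.

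Set against the summed signal of the 15 others on the same array, miR-122 was at 0.691 on HCC 1, 1.11 on HCC 2-1 and 1.43 on HCC 2-2. It was at 1.60 on NT 1, 1.53 on NT 2 and 1.35 in normal liver. All 3 HCC samples were below both NT samples, and HCC 2-2 was above normal liver. The means were 1.08 ± 0.37 in HCC (SD, n = 3) and 1.57 ± 0.05 in NT (SD, n = 2), with p = 0.2 by the exact permutation test, the smallest it can give here. Of the 613 tested miRNAs, 45 (7.34%) were below both NT samples on every HCC array by the same measure. Summed over the 15 others, the signal was 4.90%, 5.37% and 5.49% of all mouse-probe signal in HCC, 6.05% and 5.01% in NT and 6.94% in normal liver.

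**Figure D4:**
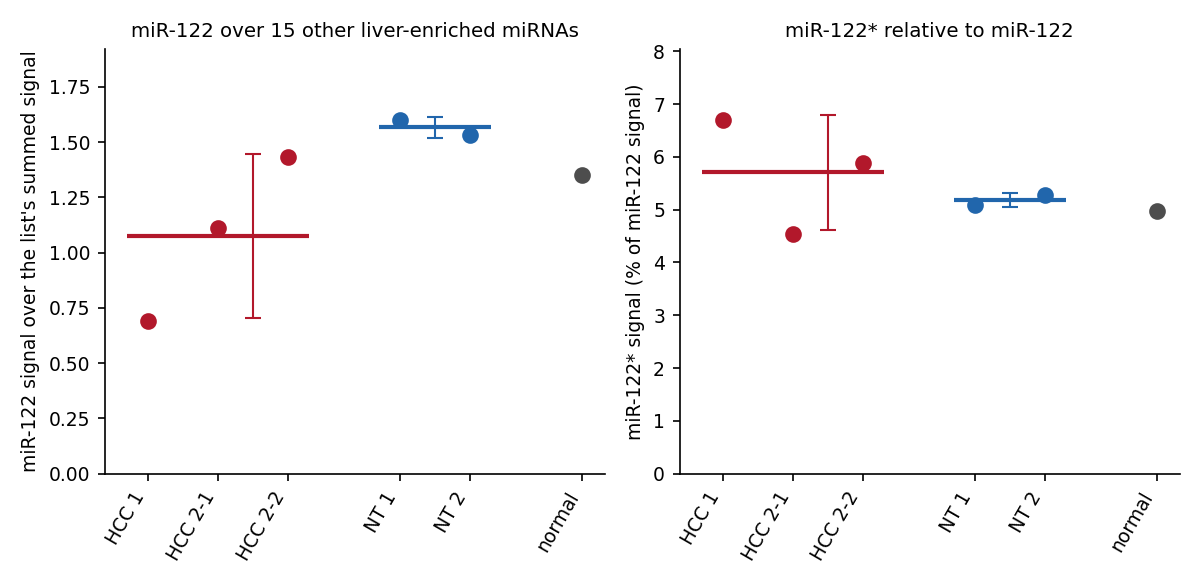
Left, the miR-122 signal divided by the summed signal of 15 other liver-enriched miRNAs on the same array. Right, the signal of miR-122* as a percentage of that of miR-122. Points are arrays, horizontal lines are group means and vertical bars are SD (HCC n = 3, NT n = 2). On the left all 3 HCC points lie below both NT points, and on the right the HCC points lie on both sides of the NT points.

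Markers of other cells gave less signal than miR-122. The endothelial markers came closest, with miR-122 at 3.43 times their sum on HCC 1. The 8 leukocyte miRNAs, of which 7 or 8 were above background on each array, summed to 0.303%, 0.235% and 0.280% of mouse-probe signal in HCC, 0.299% and 0.452% in NT and 0.133% in normal liver. The 5 mesenchymal and stellate miRNAs, all above background on every array, summed to 0.345%, 0.303% and 0.328% in HCC, 0.454% and 0.693% in NT and 0.276% in normal liver. NT 2 was highest in both lists, and its miR-122 share was the lower of the 2 NT samples.

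The 2 endothelial strands, miR-126-3p and miR-126-5p, summed to 0.987%, 1.52% and 1.98% in HCC, 1.67% and 1.75% in NT and 1.02% in normal liver. By share, HCC 1 was lowest in this list as in miR-122. HCC 2-2 had the highest share in this list, but its miR-122 share was below those of NT 1 and normal liver. By summed signal normal liver was lowest in this list, at 586 units against 789 on HCC 1. The 3 erythroid miRNAs summed to between 0.586% and 0.864% in the 5 STAM samples, against 0.0303% in normal liver. In the STAM samples nearly all of that sum was miR-451, while miR-144 and miR-486 were close to background. NT minus normal was 2.80 for miR-451, against 0.066 for miR-144 and 0.12 for miR-486. The 7 bile duct and epithelial miRNAs summed to between 0.0426% and 0.158% in HCC, 0.177% and 0.176% in NT and 0.176% in normal liver. Markers of muscle, pancreas and nerve were near 0, at 0.0162% or less on every array for each list, and the muscle list was at 0 in normal liver. Only 3 of 5 muscle and 4 of 5 nerve names were matched to a probe, and miR-1, miR-208a and miR-219 were not. The part of these cell types in the miR-122 values was not tested.

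The 5 miRNAs whose normalized log2 values followed those of miR-122 most closely over the 6 arrays, out of 281 other miRNAs above background on all arrays, were miR-5121, let-7e, miR-3068*, miR-26b and miR-126-5p. Their Pearson correlations with miR-122 were 0.925, 0.913, 0.887, 0.886 and 0.870, and 2 of the 281 were above 0.9. These values are a description over 6 arrays that share 1 normalization, and miR-122 takes 3 levels in them. miR-122* had a correlation of 0.757 and stood at position 13. The lowest correlation was -0.915, for miR-107. All 5 had a difference below 0 in HCC minus NT, between -0.45 for miR-26b and -0.011 for miR-5121, and none passed. They were picked by their values on these same arrays, so the shared sign is no separate result. miR-5121 was close to background, with spots of 20 to 28 units against minimums of 14.5 to 20.7.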

How the data were processed

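Mouse liver RNA was measured on 6 1-colour arrays (3 HCC, 2 NT, 1 normal), 2 to a chip. The deposited scanner files hold raw intensity at 635 nm as pixel medians, 1 for a spot and 1 for its surroundings, and per the file headers nothing was normalized. A second deposited table holds the authors' processed intensity values. Against the scanner values each of its columns was a straight line (r at least 0.99996) with a median of 25, so it is background-subtracted, scaled to that median, uncentred and in the scanner's direction; its background rule is not stated in the sources.

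Levels, ranks and shares used the spot minus the mean of 1818 blank spots, after the outer 5% at each end was left out. For tests, normexp (offset 50), log2 and quantile normalization over 1095 mouse probes were followed by limma 3.58.1 in R 4.3.3 on all 6 arrays. Benjamini-Hochberg adjustment ran over 613 probes above background (blank mean plus 2 SD) on at least 2 arrays, at 0.05. limma offset 2 very small variances away from 0. The probe of miR-434-5p, with a spot marked not OK on HCC 1, was left out. Single values were tested by exact permutation over arrays. The fit was tested on simulated data. The number of arrays limits the precision.

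Named miRNAs are miR-122 and miR-122*, the 5 brightest probes of each array, the neighbours of miR-122 in rank, the liver-enriched list and the 5 most correlated miRNAs. The miRNA studied and all lists were chosen with earlier results of these data known. Label numbers 1 and 2 occur in HCC and NT, but the labels do not say that they pair samples. Treated HepG2 cells, which the series design mentions, were not analysed here.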

Additional observations from a re-analysis of the deposited data

How the results depend on the processing

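For HCC minus NT, 24 of 25 alternatives gave miR-122 a value below 0, from -0.94 (blank level subtracted, then scaled to the median of probes above background on all arrays; limma's adjusted p 0.615) to 0.00. It passed in 2, both chosen after the data were seen, at -0.59 (adjusted p 0.0213) and -0.71 (adjusted p 0.00433) with the median and the 75th percentile of probes above background on all arrays. Taking label numbers as a replicate block gave -0.37 (limma's adjusted p 0.770); the numbers correlated at 0.16 over 613 probes and are not stated to pair samples. Leaving out each HCC and NT array in turn gave -0.52 to 0.00 for HCC minus NT, 0.00 to 0.27 for NT minus normal and -0.39 to 0.14 for HCC minus normal. HCC minus normal ranged from -1.49 (blank level and median) to 0.14 (without HCC 1) over 24 alternatives, and was called at -0.96 with the 75th percentile of probes above background on all arrays. NT minus normal turned below 0 in 5 of 24 alternatives: -0.011 with the 75th percentile of tested probes, -0.65 with cyclic loess, -0.55 with the blank level and median, and -0.033 and -0.25 with the median and 75th percentile of probes above background on all arrays. The cause was not tested. Alternatives that change only the tested probes or limma's prior cannot move these values. Those that change only HCC arrays cannot move NT minus normal. Those that change only the background correction before quantile normalization kept the ranks of miR-122. They gave nearly the reported values, at -0.31 for HCC minus NT and 0.14 for NT minus normal. The counts of values below 0 are out of totals that include all these kinds. The share stayed lower in HCC in all 13 alternatives (-5.27 to -1.29 percentage points; -4.01 to -1.77 leaving out HCC or NT arrays), and ranks did not change with the local background or in the authors' deposited table. By the pixel mean of the spot in place of its median, miR-122 ranked 2 and not 3 on NT 2, and kept its rank on the other arrays. Calls among all miRNAs ranged over 0 to 20, 0 to 17 and 0 to 498 in HCC minus NT, NT minus normal and HCC minus normal, against 0, 1 and 1 as reported.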
